A study of Homo sapiens with 6 samples.

Results

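The 81 genes described here encode the proteins of the cytosolic ribosome, 50 of them in the large subunit and 31 in the small subunit. They were taken by name from the 11886 genes listed at all 3 times of a cell-cycle experiment. The rule kept names of RPL or RPS followed by a number, the stalk genes RPLP0, RPLP1 and RPLP2, and RPSA, the gene of a small-subunit protein first known as a laminin receptor. The ribosomal S6 kinase genes and any copy on the Y chromosome were dropped. No measured level entered the choice. RPL21 also matches the name rule, as the last of 82 genes, but was not listed at 3 h and is not counted among the 81. None of the 81 genes was listed at 0 in any library.

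Ribosomal proteins coat and stabilise the ribosomal RNAs, and a ribosome needs a single copy of nearly each of them, so their genes are usually expressed in step. In vertebrates their transcripts begin with a C followed by a run of pyrimidines, the 5′ terminal oligopyrimidine (TOP) tract, through which the mTOR pathway and the RNA-binding protein LARP1 set how strongly they are translated and how stable they are. A few of the genes have paralogues, such as RPL10L beside RPL10, that are mostly weaker in body tissues or are used mainly in the testis.

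The cells were U2OS, an established line from a human osteosarcoma. In the siE2F7 arm they carried siRNAs against E2F7, an atypical E2F factor that represses genes of the cell cycle, and in the siNT arm they carried non-target control siRNAs. Both arms were held in 4 mM hydroxyurea, a blocker of deoxynucleotide synthesis, for 24 h, and were then washed and left to enter S phase. RNA was taken at 0, 3 and 12 h, which the design text places at the G1/S transition, in S phase and at the G2/M boundary, and each arm had 1 library at each time. All groups share the line, the siRNA transfection and the block, and unblocked cells are not analysed here. Levels are FPKM, fragment numbers scaled to transcript length and to the mapped fragments of a library, so that levels can be compared between genes.

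E2F7 itself stood at 9.48, 10.6 and 5.52 FPKM in siE2F7 cells at 0, 3 and 12 h, against 20.3, 29.4 and 16.6 FPKM in siNT cells. Its log2 change was -1.37 ± 0.10 (SE, 3 libraries per arm; limma, adjusted p = 0.00102), so part of the transcript was still present in the knockdown. COL1A1, a collagen of bone-forming cells, lay between 261 and 376 FPKM over the 6 libraries, while RUNX2, a master factor of that lineage, lay between 2.83 and 4.60 FPKM. SPARC and VIM, further mesenchymal genes, lay between 401 and 528 FPKM and between 759 and 886 FPKM, and ALPL, the alkaline phosphatase of bone, fell in siE2F7 (log2 change -0.37 ± 0.10, SE; limma, adjusted p = 0.043). COL1A2, looked up with these genes, was not listed at all 3 times. Of the epithelial markers EPCAM was listed, at 2.33 to 3.27 FPKM. None of the 3 blood markers and neither endothelial marker looked up was listed at all 3 times. The libraries summed to between 351305 and 375954 FPKM over all listed genes, and the lowest sum was that of siNT at 3 h. The depth behind the values is unknown, because no counts were given.

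The start of the transcript is shown for the genes on which the results turn, and for abundant genes that kept to the group. Each window holds 15 bases before and 15 bases from the transcription start listed by RefSeq (build GRCh38.p14), and capitals mark an unbroken run of C and T that begins at the start.
RPS26 (chr12:56041903-56041932, plus strand): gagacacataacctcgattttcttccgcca
RPS25 (chr11:119018329-119018358, minus strand): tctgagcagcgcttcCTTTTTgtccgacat
RPL10L (chr14:46651767-46651796, minus strand): caggcgtagttaagagagcgcattttgact
RPLP2 (chr11:809952-809981, plus strand): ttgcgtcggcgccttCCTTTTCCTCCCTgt
RPL41 (chr12:56116618-56116647, plus strand): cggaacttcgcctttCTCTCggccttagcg
RPLP1 (chr15:69452803-69452832, plus strand): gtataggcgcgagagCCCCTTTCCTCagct
RPS12 (chr6:132814554-132814583, plus strand): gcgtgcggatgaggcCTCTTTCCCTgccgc
RPS27 (chr1:153990747-153990776, plus strand): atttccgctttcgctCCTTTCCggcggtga
RPS25, RPLP2, RPL41, RPLP1, RPS12 and RPS27 begin with C and a pyrimidine run at these starts. RPS26 and RPL10L do not, although in RPS26 a run of 9 pyrimidines begins at base 3 of the listed transcript. Of the 81 genes 65 matched an entry of the promoter table, and 45 of these (69.2%) had a C followed by at least 4 pyrimidines at a listed start, against 591 of 8197 other tested genes with an entry (7.21%).

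The ribosomal protein genes were among the most abundant transcripts of the cells. Of the 81 genes 76 averaged 100 FPKM or more, and together they took 13.9%, 13.9% and 14.0% of all FPKM in siE2F7 cells at 0, 3 and 12 h, against 14.7%, 13.3% and 14.9% in siNT cells. The highest mean was that of RPL41, the smallest protein of the ribosome. Its level was 2159, 2236 and 2200 FPKM in siE2F7 cells at 0, 3 and 12 h, against 2294, 1903 and 2358 FPKM in siNT cells. The siE2F7 values of RPL41 thus lay inside the span of the siNT values, whose 3 h library was the lowest of the 6. RPLP1, a protein of the acidic stalk that recruits elongation factors, RPS12, RPS2 and RPS24 came next in level, with means of 1955, 1641, 1622 and 1462 FPKM. The 5 lowest members were all paralogues, from RPL26L1 at a mean of 21.8 FPKM and RPL10L at 22.6 FPKM through RPL22L1 at 25.8 and RPL39L at 46.2 to RPL7L1 at 66.1 FPKM.

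The siNT library of 3 h was the lowest of the 6 for most of these genes. Of the 81 genes 71 (87.7%) had their lowest value of the 6 libraries in siNT at 3 h, against 17.9% of all genes tested, 34.7% of the 513 other genes that averaged 100 FPKM or more and 61.8% of the 76 entries named as mitochondrial ribosomal proteins, 1 of which, MRPL45P2, is a pseudogene. Measured from each gene's own mean on the log2(FPKM + 0.1) scale, the median of the 81 genes stood at -0.03, -0.02 and -0.02 in siE2F7 cells at 0, 3 and 12 h. The siNT medians were 0.10 at 0 h, -0.14 at 3 h and 0.11 at 12 h. The group was thus nearly level over the siE2F7 libraries, and its siNT libraries lay above that level at 0 and 12 h and below it at 3 h. In siNT at 3 h the same median was -0.08 over the 513 other genes that averaged 100 FPKM or more and -0.03 over all genes tested. The siNT median of the 81 genes lay apart from the siE2F7 median of the same time by a like amount at 0, 3 and 12 h. The part that the preparation or scaling of any library has in the results was not tested. Results under other scalings are given below. As deposited, 72 of the 81 genes followed the group's order of signs over the 3 times. Under quantile normalization 22 did, and under median-of-ratios scaling 65 did. Changes over the 3 times are also given without the 3 h libraries where these move them most. Most members were higher in siE2F7 at 3 h and lower at the other times. Leaving out 3 h therefore lowers their change by construction.

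**Figure D1:**
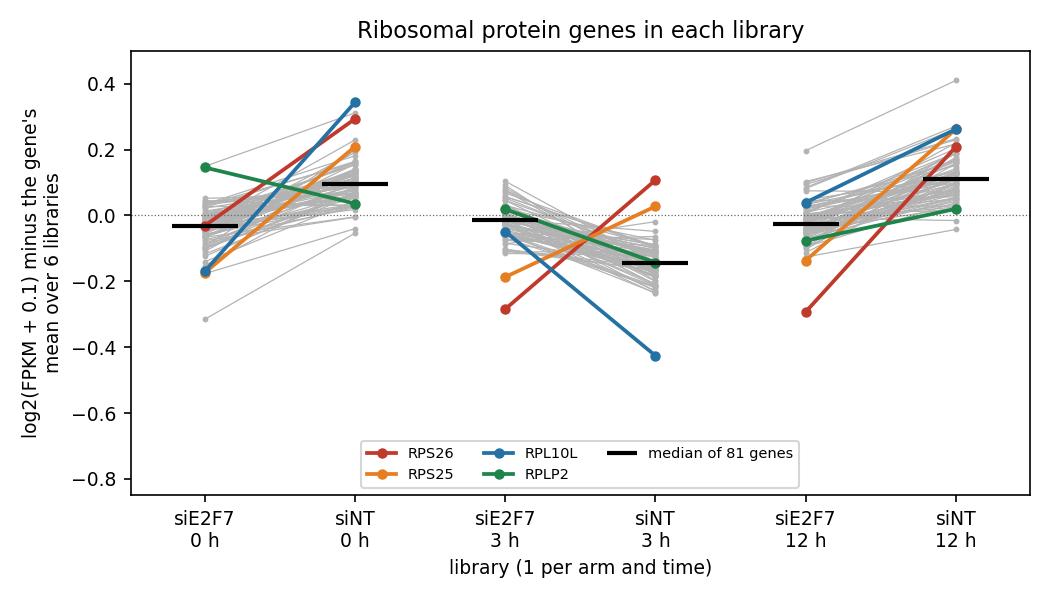
Level of each of the 81 ribosomal protein genes in each library, as log2(FPKM + 0.1) less the gene's mean over the 6 libraries (vertical axis), with the siE2F7 and the siNT library of a time side by side and joined by a line for each gene. Grey lines are the members that kept to the group, coloured lines are RPS26, RPS25, RPL10L and RPLP2, and black bars are the medians of the 81 genes. Nearly all grey lines climb towards siNT at 0 and 12 h and drop towards siNT at 3 h.

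The genes moved together at each time, by a small amount. At 0 h the median log2 ratio of siE2F7 over siNT was -0.14 (0.908-fold), and 79 of 81 genes were lower in the knockdown, where 55.5% of all genes tested were lower. At 3 h the median was 0.13 (1.09-fold), and 76 genes were higher, against 50.1% of all genes. At 12 h it was -0.14 (0.910-fold), and 79 genes were lower, against 55.9% of all genes. Sets more like the group leaned the same way. Of the 513 other genes that averaged 100 FPKM or more, 64.7% were lower at 0 h, 72.7% higher at 3 h and 60.6% lower at 12 h. For the 217 of these with transcripts of at most 1000 bases the shares were 75.6%, 77.4% and 67.7%. For the 76 mitochondrial entries they were 82.9%, 69.7% and 67.1%. In bulk RNA, fewer cells that make a transcript and less of it per cell cannot be told apart. With 1 library per arm at a time none of these ratios has a replicate, and neither the ratios nor their difference between times was tested.

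The order of lower at 0 h, higher at 3 h and lower at 12 h was followed by 72 of the 81 genes (88.9%), against 11.9% of all genes, 30.2% of the other genes with at least 100 FPKM and 35.5% of the mitochondrial ribosomal protein genes. After quantile normalization of the 6 libraries 22 of the 81 genes (27.2%) kept to that order, against 8.59% of all genes, 9.36% of the other genes with at least 100 FPKM and 19 of the 76 mitochondrial entries (25%). The medians then had the same signs, at -0.03, 0.02 and -0.07. After median-of-ratios scaling, which divides each library by a constant, 65 of the 81 genes (80.25%) kept to the order. That compares with 9.09% of all genes, 21.6% of the other genes with at least 100 FPKM and 26.3% of the mitochondrial entries. The medians under that scaling were -0.10, 0.12 and -0.087. How far the order held thus depended on the scaling, and the cause of this difference was not tested. The 9 exceptions under the deposited scaling were RPL14, RPL28, RPL3, RPL35, RPL7L1, RPLP2, RPS15, RPS25 and RPS26. Of these RPL28, RPL3, RPL7L1, RPS25 and RPS26 were lower in siE2F7 at all 3 times, and no gene was higher at all 3. These 5 were the genes lower at 3 h, where 49.9% of all genes were, although RPL7L1 had 61.1 FPKM in both arms at that time and RPL3 had 690 FPKM in siE2F7 and 695 FPKM in siNT. RPL14 and RPLP2 were the 2 genes higher in siE2F7 at 0 h (44.5% of all genes were), and RPL35 and RPS15 the 2 higher at 12 h (44.1% of all genes were), with RPL35 at 406 FPKM in siE2F7 and 404 FPKM in siNT and RPS15 at 283 FPKM in siE2F7 and 281 FPKM in siNT. These values of RPL7L1, RPL3, RPL35 and RPS15 are close to equal between the arms.

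The spread of the ratios within the group was narrow. The SD of the 81 log2 ratios was 0.087, 0.10 and 0.082 at 0, 3 and 12 h, and their interquartile range was 0.099, 0.092 and 0.090. Over all genes tested the SD was 0.43, 0.43 and 0.47 and the interquartile range 0.33, 0.35 and 0.40, a set that holds many weakly expressed genes. The 513 other genes that averaged 100 FPKM or more had SDs of 0.20, 0.24 and 0.32, and the 217 of them with transcripts of at most 1000 bases had 0.18, 0.20 and 0.25, with medians of -0.10, 0.10 and -0.07. Other genes past these bounds of level and length therefore shared the signs of the group medians at the 3 times with a wider spread. They were not matched to the members in level, so the spread of genes of like level is not given. Without the 4 genes that left the group the SD was 0.064, 0.070 and 0.066.

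Both subunits and the classes of transcript start gave nearly the same medians. The large-subunit genes had median log2 ratios of -0.14, 0.12 and -0.13 at 0, 3 and 12 h, and the small-subunit genes -0.14, 0.14 and -0.14. The 45 genes with a C and pyrimidine start had medians of -0.14, 0.11 and -0.13, and the 20 matched genes without one had -0.13, 0.13 and -0.16. The stalk genes RPLP0, RPLP1 and RPLP2 had medians of -0.07, 0.10 and -0.10. Sets of letters bound by activating and repressing E2F factors (TTTCCCGC, TTTGGCGC, TTTCGCGC and TTTGCCGC, on both strands) were searched in the 300 bases around each listed start, and 4 of the 65 matched genes (6.15%) held one, namely RPL36, RPL7A, RPLP2 and RPS29. Of the other tested genes with an entry 6.89% held one.

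**Figure D2:**
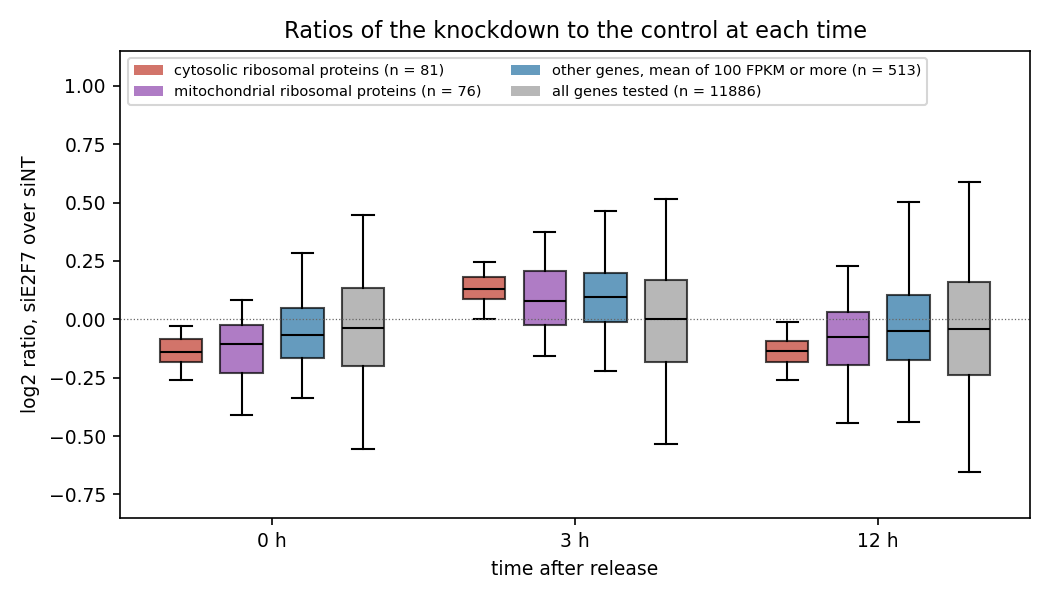
Log2 ratio of siE2F7 over siNT (vertical axis) at 0, 3 and 12 h for the 81 cytosolic ribosomal protein genes, the 76 mitochondrial ones, the 513 others that averaged 100 FPKM or more and all 11886 genes tested. Boxes span the quartiles with the median as a line, and whiskers run from the 5th to the 95th percentile of genes. The cytosolic set has the shortest boxes, centred at -0.14, 0.13 and -0.14.

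Over time within an arm, the group shifted in siNT and hardly in siE2F7. In siE2F7 cells the median log2 difference was 0.01 for 3 h over 0 h, with 47 genes higher (42.7% of all genes were), and -0.02 for 12 h over 3 h, with 46 genes lower (50.8% of all genes were). In siNT cells the median was -0.25 for 3 h over 0 h, with all 81 genes lower (61.3% of all genes were), and 0.25 for 12 h over 3 h, with all 81 genes higher (55.4% of all genes were). Both siNT contrasts use the 3 h library described above. Without the 3 h libraries, the 12 h over 0 h medians were 0.01 in siE2F7, with 44 genes higher (44.6% of all genes), and 0.01 in siNT, with 45 higher (45.9% of all genes). The times may have been scaled separately by the authors, and no test was made between them.

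A few genes had a time course of their own in both arms. RPL13A, whose protein also takes part in silencing inflammatory transcripts, stood at 162, 187 and 232 FPKM in siE2F7 cells at 0, 3 and 12 h, against 195, 186 and 269 FPKM in siNT cells. Its 12 h level was the highest of each arm, with log2 differences of 0.51 in siE2F7 and 0.46 in siNT from 0 h, the largest of the 81 genes in both. RPL39L, a paralogue enriched in male germ cells, had the lowest 12 h over 0 h difference in both arms. It stood at 50.9, 44.1 and 42.0 FPKM in siE2F7 cells and at 56.9, 39.0 and 44.5 FPKM in siNT cells, and those differences were -0.28 in siE2F7 and -0.35 in siNT.

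The members that left the group were found at each time as those more than 3 scaled median absolute deviations from the group's median ratio, a size rule with no test. RPS25 lay outside at all 3 times, RPS26 at 3 and 12 h, RPL10L at 0 and 3 h, and RPLP2 at 0 h. The smallest distances outside were -3.29 for RPS25 and 3.37 for RPLP2 at 0 h and 3.44 for RPL10L at 3 h, in scaled deviations. The largest inside were -2.75 for RPL28 at 3 h, -2.50 for RPS26 at 0 h and -2.38 for RPS27L at 12 h. With a bound of 2 in place of 3, 12 genes lay outside at some time.

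RPS26, whose protein lines the exit of the mRNA channel on the small subunit and whose loss of one gene copy causes Diamond-Blackfan anaemia, fell most. It lies at chromosome 12, 56435686 to 56438007 (hg19, the build of the authors' tables). Its level was 222, 187 and 185 FPKM in siE2F7 cells at 0, 3 and 12 h, against 279, 245 and 263 FPKM in siNT cells. Every siE2F7 library was below every siNT library. The fitted log2 change was -0.41 ± 0.07 (SE; 0.755-fold; limma with Benjamini-Hochberg adjustment over all genes, adjusted p = 0.011), with ratios of -0.32, -0.39 and -0.50. The call ended without the 12 h libraries (-0.36, adjusted p = 0.076), and the adjusted p was 0.039 without those of 0 h and 0.025 without those of 3 h.

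RPS25, a protein of the small-subunit head that some viral internal ribosome entry sites depend on, also fell. The authors list its locus as chromosome 11, 118868852 to 118889057 (hg19). Its level was 443, 439 and 454 FPKM in siE2F7 cells at 0, 3 and 12 h, against 577, 509 and 599 FPKM in siNT cells, and the arms again did not overlap. The log2 change was -0.33 ± 0.08 (SE; 0.794-fold; limma, adjusted p = 0.031), with ratios of -0.38, -0.21 and -0.40. The call ended without the libraries of 0 h (adjusted p = 0.18) or of 12 h (adjusted p = 0.23) and held without those of 3 h (adjusted p = 0.015). The listed interval overlaps those of CCDC84 and RPL23AP64, with log2 changes of 0.05 and -0.06 (limma, adjusted p = 0.79 and 0.87). How reads of overlapping genes were assigned is not given in the sources used here.

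RPS25 and RPS26 were the only members called. Of all 11886 genes, 803 (6.76%) rose and 847 (7.13%) fell in siE2F7 (limma, adjusted p below 0.05). Of the 81 members none rose and 2 fell, and at an unadjusted p under 0.05 the same 2 were reached. In this fit a ratio that changes between times adds to the residual spread. Members that were lower, higher and lower in turn were thus less readily called. For RPL41 the standard error was 0.11 here and 0.030 after each library was centred on the 81 genes. Members that were not called are therefore not shown to be unchanged. They were also the only members whose siE2F7 libraries all lay below their siNT libraries, which held for 8.76% of all genes. Without the 3 h libraries 4 members were called, RPS12, RPS25, RPS26 and RPS27, all lower in siE2F7 (3.63% of all genes were then called lower). Without the libraries of 0 h RPS26 was the only one (4.53% of all genes), and without those of 12 h none was (4.71% of all genes). When each library was centred on the 81 genes, RPS26 stood at -0.36 and RPS25 at -0.29 relative to the group, and again no other member was called. The labels do not say that the libraries came from separate cultures, so the spread behind the p-values is that of these libraries and may be technical.

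RPS26 has many near-identical copies elsewhere in the genome, and 1 of these was listed. RPS26P11, a processed copy, stood at 56.0, 46.6 and 48.6 FPKM in siE2F7 cells at 0, 3 and 12 h, against 71.3, 57.2 and 63.3 FPKM in siNT cells. Its mean was 24.9% of that of RPS26, and its log2 change was -0.34 ± 0.06 (SE; limma, adjusted p = 0.014). Reads of RPS26 and RPS26P11 may have been shared between the entries, so that the level of either is uncertain. RefSeq names 59 pseudogenes of RPS26 and 1821 for the members together, and 75 of the 81 genes have at least 1. The tables list 19 such entries of 12 members. By mean level the largest shares were 57.5% of RPL13A for RPL13AP20 and 37.9% of RPSA for RPSAP58. Reads may have been shared there as well, so the levels of RPL13A and RPSA are uncertain too. Besides RPS26P11, RPL13P5 was called, with 4.20, 3.53 and 4.27 FPKM in siE2F7 cells against 2.55, 1.13 and 2.12 FPKM in siNT cells (log2 change 1.08 ± 0.19, SE; limma, adjusted p = 0.0129). RPL13 itself had a log2 change of -0.05.

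**Figure D3:**
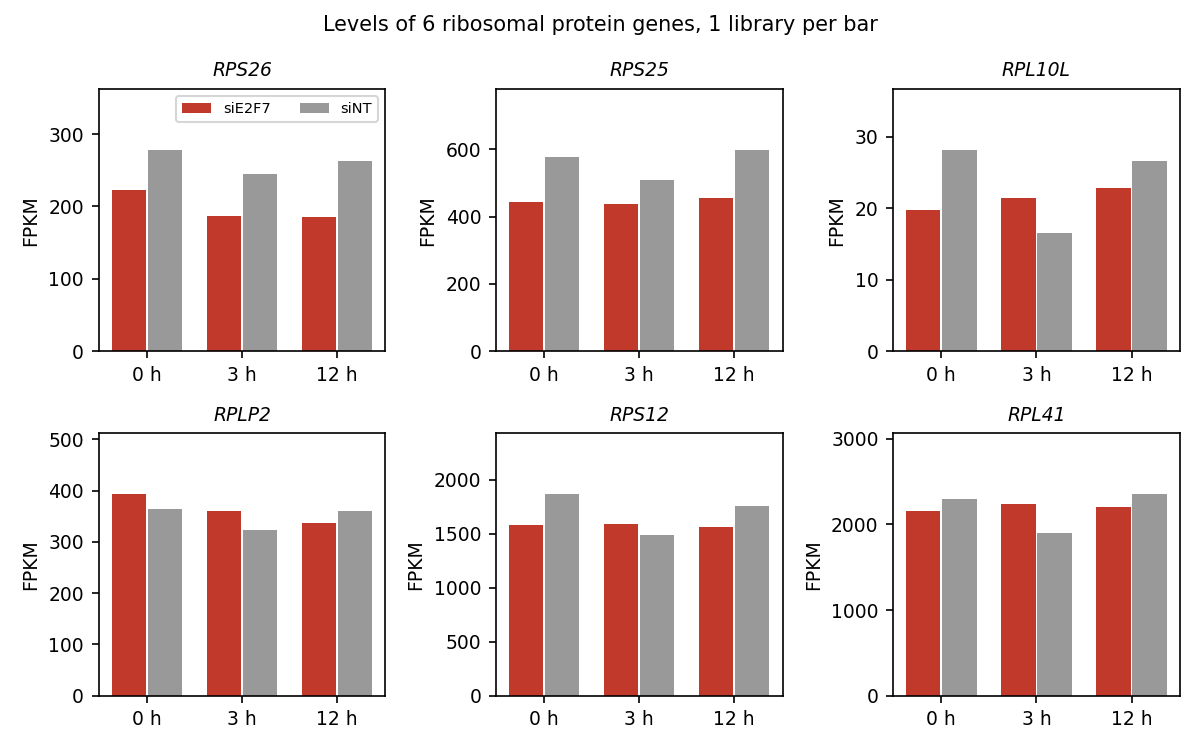
FPKM (vertical axes, from 0) of RPS26, RPS25, RPL10L, RPLP2, RPS12 and RPL41 at 0, 3 and 12 h, with the siE2F7 library (red) left of the siNT library (grey), 1 library per bar and no error bars. RPS26 and RPS25 have a lower red bar at every time, at most 222 and 454 FPKM, while in RPL10L, RPS12 and RPL41 the red bar is the higher one at 3 h alone.

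RPL10L and RPLP2 left the group without passing the test. RPL10L, an intronless copy that stands in for RPL10 in male meiosis, had 19.8, 21.5 and 22.8 FPKM in siE2F7 cells at 0, 3 and 12 h, against 28.2, 16.5 and 26.7 FPKM in siNT cells. It followed the group's order of signs with larger ratios, -0.51, 0.38 and -0.22, and the arms overlapped (log2 change -0.12 ± 0.15, SE; limma, adjusted p = 0.64). That value was -0.37 without the 3 h libraries (limma, adjusted p = 0.096), -0.07 without those of 12 h and 0.08 without those of 0 h. RPL10, its X-linked parent, had ratios of -0.19, 0.09 and -0.25. The mean of RPL10 was 368 FPKM and that of RPL10L 22.6 FPKM. Reads may have been shared between these entries as well, which was not tested, so the level of RPL10L is uncertain. RPLP2, the P2 protein of the stalk, had 394, 360 and 337 FPKM in siE2F7 cells, against 365, 322 and 361 FPKM in siNT cells. It was higher in siE2F7 at 0 and 3 h and lower at 12 h, with overlapping arms (0.06 ± 0.08, SE; limma, adjusted p = 0.67). Without the 3 h libraries its change was 0.01, without those of 12 h 0.14 and without those of 0 h 0.03.

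Deviations from the group's median at one time were compared with those at another as a description. Over the 81 genes, Pearson's r of the deviations was 0.17 between 0 and 3 h, 0.41 between 0 and 12 h and 0.44 between 3 and 12 h, with Spearman's rho of 0.13, 0.31 and 0.12. Without the 4 genes outside at any time, r was 0.061, 0.18 and 0.11 over 77 genes. The points are genes of the same 6 libraries and are no replicates, and each time has its own pair of libraries.

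The remaining genes lay close to each other over the 3 times. The median log2 change of the 81 genes was -0.04, with 68 below 0 and 13 above. It was -0.13 without the 3 h libraries, -0.0061 without those of 0 h and -0.0016 without those of 12 h. After RPS26 and RPS25, the lowest changes were those of RPL13A at -0.16, RPL27A at -0.15, RPS27L at -0.12 and RPL10L at -0.12. The lowest adjusted p among these was 0.22, for RPL13A. Without the 3 h libraries RPL13A stood at -0.24, RPL27A at -0.25 and RPS27L at -0.23 (limma, adjusted p = 0.073, 0.077 and 0.096). Without those of 0 h all 3 stood at -0.10, and without those of 12 h at -0.13, -0.08 and -0.04. The highest changes over the 3 times were those of RPLP2 at 0.06 and RPL34, RPL15 and RPS21 at 0.05, 0.05 and 0.04. RPS15 at 0.04 and RPL37A at 0.03 followed. Without the 3 h libraries RPL34, RPL15, RPS21, RPS15 and RPL37A all lay below 0, between -0.08 and -0.03, and RPLP2 did not. Without those of 0 h RPL34, RPL15, RPS21, RPS15 and RPL37A lay between 0.07 and 0.13. Without those of 12 h they lay between 0.05 and 0.12. RPS12, a protein of the beak of the small subunit, had 1584, 1592 and 1565 FPKM in siE2F7 cells, against 1868, 1485 and 1754 FPKM in siNT cells, so that its arms overlapped through the 3 h siNT library alone. Its log2 change was -0.10 over all times and -0.20 without the 3 h libraries (limma, adjusted p = 0.55 and 0.041). It was -0.03 without those of 0 h and -0.07 without those of 12 h (limma, adjusted p = 0.94 and 0.90).

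**Figure D4:**
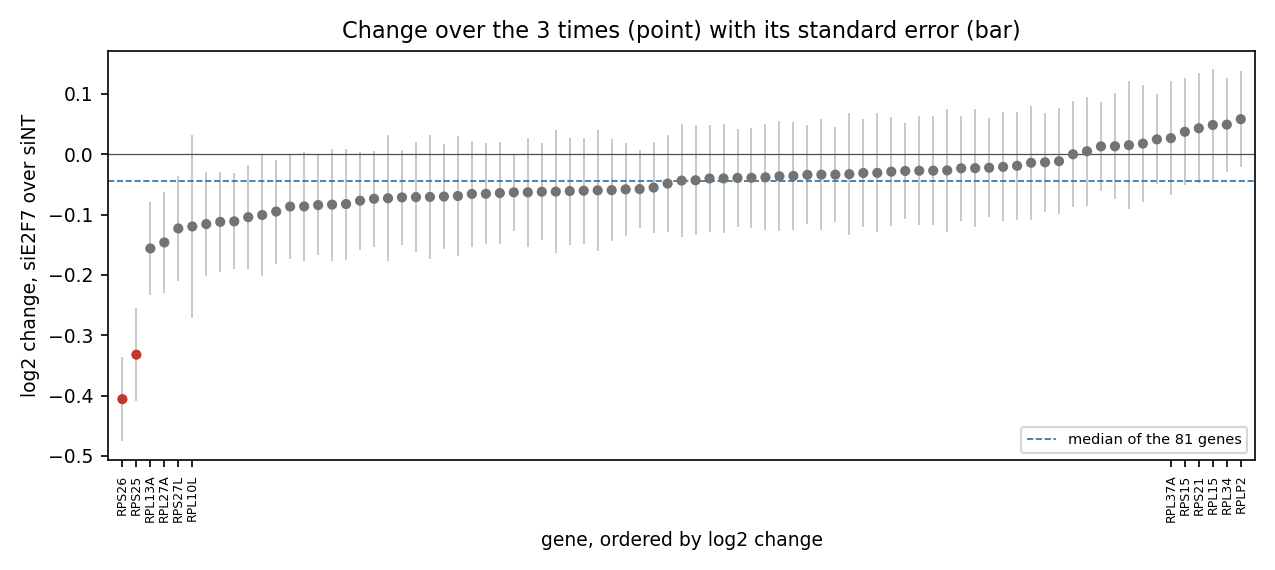
Log2 change of siE2F7 over siNT over the 3 times (vertical axis, log2(FPKM + 0.1) scale) for each of the 81 genes, ordered from lowest to highest, with its standard error from limma as a bar and the 6 lowest and 6 highest genes named. RPS26 and RPS25, in red, passed the test; the dashed line is the group's median of -0.04, and the other 79 genes lie between -0.16 and 0.06.

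Of the 6 paralogues RPL10L lay outside the group's spread at some time, and of their partner genes none did. For contrast with the partner genes, the starts of 3 pairs are shown in the same form (GRCh38.p14, RefSeq starts, RPS27 as above).
RPS27L (chr15:63157463-63157492, minus strand): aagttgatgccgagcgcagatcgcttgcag
RPL26 (chr17:8383179-8383208, minus strand): aagcagcgtgtagttCTCTTCCCTTTTgcg
RPL26L1 (chr5:172958714-172958743, plus strand): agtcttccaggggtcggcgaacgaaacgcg
RPL22 (chr1:6199581-6199610, minus strand): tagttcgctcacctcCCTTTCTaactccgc
RPL22L1 (chr3:170870181-170870210, minus strand): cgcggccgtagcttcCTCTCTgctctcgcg
RPS27L and RPL26L1 lack the C and pyrimidine start that RPS27 and RPL26 have, and RPL22L1 has one as RPL22 does. RPS27L, a p53-induced gene, had 197, 194 and 188 FPKM in siE2F7 cells at 0, 3 and 12 h, against 220, 183 and 232 FPKM in siNT cells. Its partner RPS27 had 1029, 1088 and 1080 FPKM in siE2F7 cells, against 1171, 962 and 1244 FPKM in siNT cells, the same order of signs with ratios of -0.19, 0.18 and -0.20. RPL26L1 had 22.2, 22.7 and 21.1 FPKM in siE2F7 cells, against 22.3, 20.4 and 22.2 FPKM in siNT cells. The 6 paralogues together had medians of -0.16, 0.16 and -0.10 at 0, 3 and 12 h.

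The 3 genes looked up for roles outside the ribosome did not pass the test. RPL5 and RPL11, which bind MDM2 with the 5S RNA when ribosome assembly is disturbed, had log2 changes of -0.07 and -0.07 (limma, adjusted p = 0.59 and 0.66). RPL11 had 709, 728 and 704 FPKM in siE2F7 cells at 0, 3 and 12 h, against 798, 673 and 777 FPKM in siNT cells. RPS6, the substrate of the S6 kinases, had 773, 754 and 767 FPKM in siE2F7 cells, against 869, 747 and 871 FPKM in siNT cells, and a log2 change of -0.11 (limma, adjusted p = 0.41). Without the 3 h libraries RPL5, RPL11 and RPS6 stood at -0.12, -0.16 and -0.18 (limma, adjusted p = 0.21, 0.10 and 0.075). Without those of 0 h they stood at -0.02, -0.01 and -0.08 (limma, adjusted p = 0.94, 0.97 and 0.77). All 3 were lower in siE2F7 at 0 and 12 h and slightly higher at 3 h.

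Ribosomal protein genes under other names had ratios of the same signs as the group's medians. RPL36AL had log2 ratios of -0.22, 0.08 and -0.17 at 0, 3 and 12 h. GNB2L1, which encodes the scaffold RACK1, had -0.17, 0.05 and -0.18. FAU, whose protein is made fused to a ubiquitin-like protein, had -0.14, 0.14 and -0.02. All 3 followed the order of lower, higher and lower, and none passed the test. The separate ribosome of mitochondria has its own proteins. Of their 76 entries none rose and 4 fell, where 6.76% of all genes rose and 7.13% fell. The 4 were MRPL19 (-0.51), MRPS12 (-0.37), MRPL40 (-0.32) and MRPS7 (-0.32). The medians of the 76 entries were -0.11, 0.08 and -0.08, with SDs of 0.16, 0.18 and 0.18. In siNT cells their median was -0.34 for 3 h over 0 h, and in siE2F7 cells -0.12.

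Genes that build and serve the ribosome were counted by list, from lists chosen with earlier results known, and their counts stand beside 6.76% of all genes that rose and 7.13% that fell. Of 50 ribosome biogenesis factors 7 fell and 1 rose, with medians of -0.07, -0.02 and -0.24 at 0, 3 and 12 h. NMD3, the export adaptor of the large subunit, had 15.3, 16.4 and 16.2 FPKM in siE2F7 cells, against 20.6, 27.1 and 23.6 FPKM in siNT cells (-0.56 ± 0.08, SE; limma, adjusted p = 0.00591). The others that fell were NOL6 (-0.48), RIOK2 (-0.47), NIP7, PWP2, WDR3 and WDR12, and the helicase gene DDX18 rose (0.40). Of 14 measured genes of RNA polymerase I and 5S transcription POLR1B, a core subunit, fell (-0.33) and none rose, and none of 11 chaperones of ribosomal proteins passed the test. Of 29 initiation factors EIF5B, which joins the subunits, rose (0.36), and EIF2B5 (-0.39) and EIF2B3 (-0.36), subunits of the exchange factor of eIF2, fell. Of 17 elongation factors and other TOP genes NAP1L1 rose (0.26) and none fell, and their medians were -0.06, 0.04 and -0.05.

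Among 15 measured regulators of ribosomal protein synthesis 3 rose and 2 fell, where 6.76% of all genes rose and 7.13% fell. LARP1, the TOP-binding repressor, had 37.7, 28.4 and 32.1 FPKM in siE2F7 cells at 0, 3 and 12 h, against 40.9, 40.4 and 46.5 FPKM in siNT cells. Its log2 change was -0.38 ± 0.09 (SE, limma, adjusted p = 0.036). All its siE2F7 libraries lay below all its siNT libraries, which held for 8.76% of all genes. MAX, the partner of MYC, fell by 0.56 on the log2 scale, and MYC itself did not pass the test (-0.18; limma, adjusted p = 0.24). GABPA, an ETS factor, RPTOR, the substrate adaptor of mTOR complex 1, and AKT1, a kinase upstream of it, rose by 0.49, 0.36 and 0.29. Their adjusted p-values from limma were 0.038, 0.040 and 0.036.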

How the data were processed

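Gene-level FPKM were used as deposited by the authors, in 6 tables with 1 library each. CASAVA 1.8 and hg19 (GRCh37) are named in the submitters' processing notes; aligner, counter, annotation and strand setting were not given in the sources used here. The times list 12799, 12475 and 12299 genes at 0, 3 and 12 h, so each pair was filtered apart, and depth is unknown. Genes were joined by symbol, and 11886 genes listed at all 3 times were tested with limma 3.58.1 (R 4.3.3) on log2(FPKM + 0.1), which understates changes of low genes. Time was a block and arm the tested term, with a variance trend, 2 residual and 5.41 prior degrees of freedom, and Benjamini-Hochberg adjustment at 0.05. At single times ratios were described without a test.

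The members, gene lists and tests were chosen with earlier results of these data known. Named members are those called, those outside the group, the 5 highest and lowest levels, the 6 highest and lowest mean ratios, paralogue pairs, and RPL5, RPL11 and RPS6; from each list, called genes and up to 3 extremes. The 9 exceptions to the order of signs, RPS12, RPS27 and genes of the time courses were named after their values were seen. A shared locus is an overlap of at least 1 base between entries, which 30 members have, 24 of them with a small RNA. Alternatives changed the pseudocount, scaling, block, trend, gene filter, libraries and bounds. Starts are RefSeq's (GRCh38.p14). Some items are not reported here.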

Additional observations from a re-analysis of the deposited data

Results flagged for a closer look

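The median log2 ratio of siE2F7 over siNT over the 81 ribosomal protein genes changed sign between times, at -0.14 at 0 h, 0.13 at 3 h and -0.136 at 12 h. The difference between the times was not tested, since each has 1 library per arm, and the siNT library of 3 h is the lowest of the 6 for 71 of the 81 genes.

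RPL21, left out because it is not listed at 3 h, was at 65.05 FPKM in siE2F7 and listed at 0 in siNT at 12 h. At 0 h it had 39.7 FPKM in siE2F7 and 38.4 FPKM in siNT. A listed 0 can be a failed estimate, and no fold is given.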

How the results depend on the processing

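The medians at each time kept their signs under every alternative run. Quantile normalization brought those of 0 h and 3 h to -0.035 and 0.021. With no time block 15 genes were called higher and 17 lower, and 0 members; without the variance trend 400 higher and 452 lower, and 1 member, RPS26 (RPS25 had an adjusted p of 0.074 in limma). Without genes that share a locus 1 member was called, RPS26, because RPS25 is itself left out there. Leaving out the libraries of 1 time gave 332 to 557 genes called higher, 431 to 560 lower and 0 to 4 members lower, with median member changes of -0.13 to -0.0016. With a bound of 2 scaled deviations 12 members lay outside the group. Without the members that share a locus RPL28 also lay outside, and under quantile normalization RPLP2 did not. Among named members, 278 values kept their side of the threshold, 6 calls ended, all of RPS25 or RPS26, 3 were gained (RPL13A under quantile normalization, RPS12 and RPS27 without 3 h), and 0 reversed past the threshold. The fit pairs the libraries of a time through the time block; the labels give no replicate numbers for another pairing. Centring on the 81 genes and leaving out the 4 outside genes were chosen after seeing the data; centring shrinks the errors of members, since it removes what they share. Where not stated, the cause of a changed count was not tested. Depth is unknown, so counting error cannot be given.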
